A study of Mus musculus with 2 samples.

Results

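The genes described here carry the symbols of protein and lipid kinases, phosphatases and their subunits, measured by RNA-seq in mast cells grown from mouse bone marrow. They were taken by symbol from the deposited RPKM table, as all rows starting with Mapk, Map2k, Map3k, Map4k, Camk, Pik3, Ptpn, Ptpr, Prk plus a letter, Ppp plus a digit, or Cdk, Dusp, Stk or Nek plus a digit, with Dusp2 and Ptpn22 left out. The rule found 63 of the 8139 rows. By known role, 22 encode kinases, 6 encode kinase subunits or adaptors, 14 encode phosphatases and 16 encode phosphatase subunits or regulators. The other 5 are neither enzyme nor subunit, and they are a pair of pseudogenes, a long non-coding RNA and the genes of a protein kinase C binding protein and of a zinc finger protein.

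The study compared 1 library from Tet2-/- cells with 1 library from WT cells, both of strain C57BL/6, without any added stimulus named in the labels. Tet2 encodes an enzyme that oxidises methylated cytosine in DNA, and the question was how mast cell gene expression differs without it. Femoral marrow had been kept for 4 to 6 weeks with 10% serum, interleukin-3 at 10 ng/ml and stem cell factor at 5 ng/ml, and the cultures used stained for both the IgE receptor and c-Kit at a purity above 97.5%. How the Tet2 allele was made, and how many animals gave each culture, is not given in the sources used here. Values are RPKM, read numbers corrected for gene length and for the mapped reads of the library. Because each genotype has 1 library, there are no replicates to check a difference against and none is tested, and a ratio compares these libraries rather than the genotypes. A ratio is always Tet2-/- over WT, followed in brackets by its 95% interval of counting error, which rests on inferred depths of 31900000 fragments in the Tet2-/- library and 30900000 in the WT library and does not cover the spread between cultures or mice. Tet2 and the receptor genes Kit, Fcer1a and Ms4a2 were not analysed here, so the genotype labels were not checked. The 4 listed of 19 mast cell markers, Fcer1g, Slc18a2, Hpgds and Mitf, summed to 1026 RPKM in the Tet2-/- library and 1267 RPKM in the WT library. The ratio was 0.736 (0.714 to 0.760) for Fcer1g and 0.859 (0.849 to 0.869) for Slc18a2. Nearly level were Hpgds at 0.964 (0.932 to 0.996) and Mitf at 0.987 (0.897 to 1.08).

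Kinases pass signals on by adding phosphate to proteins or to membrane lipids, and phosphatases take it off. In mast cells, crosslinking of the IgE receptor or binding of stem cell factor to c-Kit starts tyrosine kinase signals that run through phosphoinositide 3-kinase, calcium and the MAP kinase cascades to degranulation and cytokine release. The MAP kinase cascade is built in tiers, in which a MAP4K or another input activates a MAP3K, this a MAP2K, and this the MAP kinase, while tyrosine and dual-specificity phosphatases switch the kinases off.

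Most of these genes stood at nearly the same level in both libraries. Of the 63 rows, 43 averaged at least 1 RPKM, 14 were weaker but not at the substitute value of 0.01 in both libraries, and 6 were at 0.01 in both. Of the 43, 1 stood at least 2-fold above WT in the Tet2-/- library and 0 stood at least 2-fold below it. Fold thresholds are applied on the log2(RPKM + 1) scale, where a log2 fold of 1 stands for 2-fold and changes of low genes are understated. Over all 2107 rows past the same filter the shares were 2.9% higher and 1.61% lower, so 1 and 0 of 43 are close to the background. At 1.5-fold 2 members were higher and 0 lower, against 5.84% and 3.61% of all rows. The 43 members had a median log2 fold of 0.016, and all 2107 rows one of 0.0092.

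A level of 10 RPKM or more was found for 25 members, and 22 of these, or 88.0%, lay within 1.25-fold, compared with 85.5% of 1264 rows at that level. Of the 18 members between 1 and 10 RPKM, 11 (61.1%) lay within 1.25-fold, compared with 70.1% of 843 rows. Summed over all 63 rows, the level was 1405 RPKM in the Tet2-/- library and 1310 RPKM in the WT library, a ratio of 1.07. Over all 8139 rows the sums were 105788 RPKM in the Tet2-/- library and 97191 RPKM in the WT library, a ratio of 1.09. Without the receptor phosphatase gene Ptprg the members summed to 1062 RPKM in Tet2-/- cells and 1065 RPKM in WT cells, a ratio of 0.998.

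**Figure D1:**
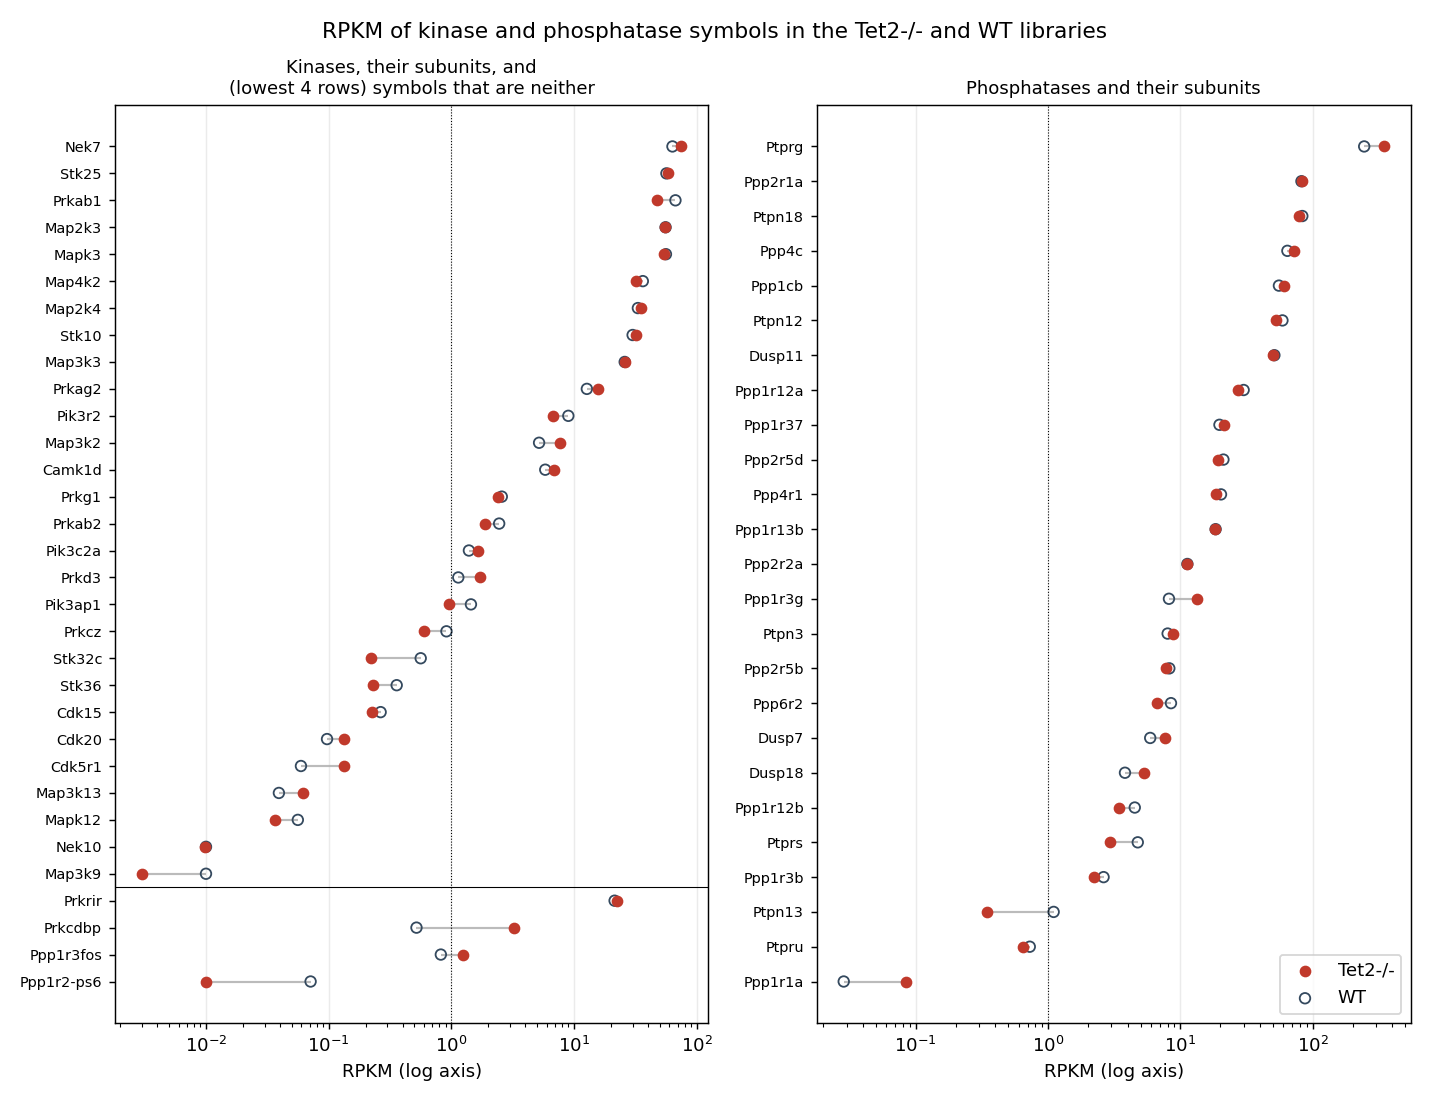
Each row is a gene with its RPKM on a log axis, filled red circles for the Tet2-/- library and open circles for the WT library, with kinases and symbols that are neither on the left and phosphatases on the right; the 6 rows at 0.01 in both libraries are not drawn and the dotted line is 1 RPKM. The circles lie close together for most abundant genes and furthest apart, above 1 RPKM, for Prkcdbp, and Ptprg is the most abundant member in both libraries.

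The libraries were sequenced deeply enough that many small differences exceeded counting error. Fragment numbers could be estimated for 42 members past the filter, and for 14 of these (33.3%) the interval lay above 1 and for 12 (28.6%) below 1. Over 1738 protein-coding rows the shares were 28.4% and 23.6%, and counting error is not the spread between cultures. The intervals below therefore say how well a ratio of these libraries is known and not whether the genotypes differ.

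**Figure D2:**
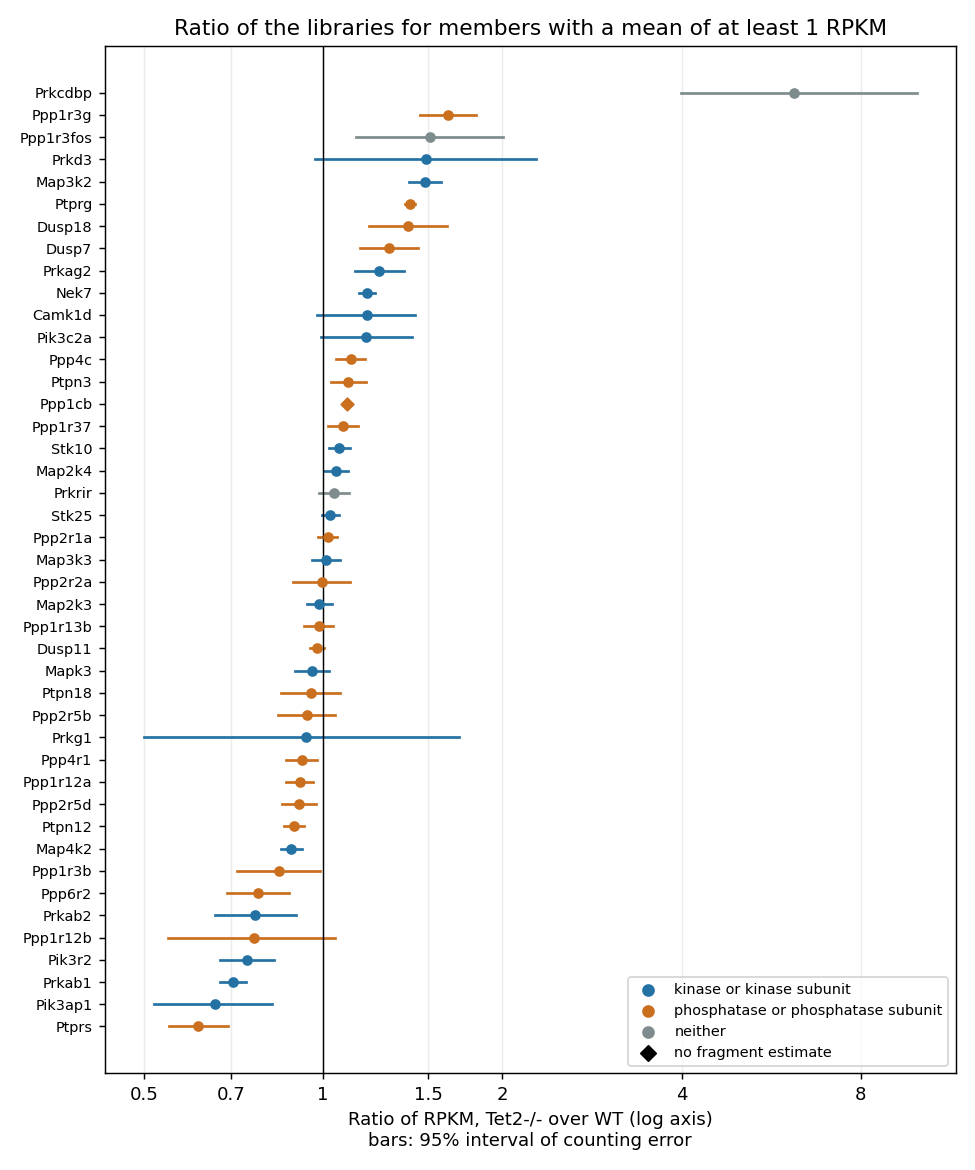
Each point is the ratio of RPKM, Tet2-/- over WT, on a log axis for the 43 members averaging at least 1 RPKM, and each bar is the 95% interval of counting error; the diamond is Ppp1cb, which has no fragment estimate. Prkcdbp stands apart at 6.19, and the other 42 members lie between 0.617 for Ptprs and 1.62 for Ppp1r3g.

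The MAP kinase cascade was represented at each tier, and of its 6 genes past the filter 5 lay within 1.25-fold, all but Map3k2. That is 83.3%, close to the 79.4% of all 2107 rows past the filter. The kinase gene at the top of the cascade was Map4k2, whose product is also called germinal centre kinase. It was at 32.1 RPKM in the Tet2-/- library and 36.4 RPKM in the WT library, a ratio of 0.883 (0.848 to 0.919). Among the MAP3K genes, Map3k3 was at 26.2 RPKM in Tet2-/- cells and 25.9 RPKM in WT cells, a ratio of 1.01 (0.959 to 1.07). Its close relative Map3k2 was at 7.69 RPKM in Tet2-/- cells and 5.19 RPKM in WT cells, a ratio of 1.48 (1.39 to 1.58). These MAP3Ks act upstream of several MAP kinases, and the weaker gene of the pair was the one that stood apart. Map3k13 was at 0.0622 RPKM in Tet2-/- cells and 0.0393 RPKM in WT cells, on about 13 fragments in Tet2-/- cells and 8 in WT cells. Map3k9 was at 0.00299 RPKM in Tet2-/- cells and at the substitute value of 0.01 in WT cells, so no direction can be read from it.

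One tier down, Map2k3, whose product activates p38 kinases, was at 55.0 RPKM in the Tet2-/- library and 55.8 RPKM in the WT library, a ratio of 0.985 (0.940 to 1.03). Map2k4, which encodes an activator of JNK and p38, was at 34.9 RPKM in Tet2-/- cells and 33.2 RPKM in WT cells, a ratio of 1.05 (1.00 to 1.10). Mapk3, the gene of ERK1, was at 53.8 RPKM in Tet2-/- cells and 56.2 RPKM in WT cells, a ratio of 0.958 (0.898 to 1.02). The levels of Map2k3, Map2k4 and Mapk3 thus lay well within 1.25-fold. Mapk12, a p38 isoform gene, was at 0.0366 RPKM in Tet2-/- cells and 0.0561 RPKM in WT cells, on about 2 fragments in Tet2-/- cells and 3 in WT cells. The 6 cascade genes past the filter had a median log2 fold of -0.0024, and the other 3 were far below 1 RPKM.

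The regulatory subunits of AMP-activated protein kinase, the cell's energy sensor, stood in opposite directions. The complex joins a catalytic alpha subunit to a beta scaffold and a nucleotide-binding gamma subunit, and the listed genes were those of both betas and of gamma-2. Prkab1, for beta-1 (chromosome 5, 116013586 to 116024508, mm10), was at 47.3 RPKM in the Tet2-/- library and 67.1 RPKM in the WT library, a ratio of 0.705 (0.671 to 0.740). Prkab2, for beta-2, was at 1.89 RPKM in Tet2-/- cells and 2.45 RPKM in WT cells, a ratio of 0.769 (0.658 to 0.900). Both beta genes were lower in the Tet2-/- library, and Prkab1 made up 96.2% of their summed RPKM in Tet2-/- cells and 96.5% in WT cells. Prkag2, for gamma-2, was at 15.8 RPKM in Tet2-/- cells and 12.7 RPKM in WT cells, a ratio of 1.24 (1.13 to 1.36), and so stood higher. Its exons overlap those of 2 antisense RNA genes, and because strandedness is not stated the reads of both strands cannot be told apart; this holds for 17 of the 43 members past the filter.

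The phosphoinositide 3-kinase genes differed moderately and were weakly expressed. Pik3r2, for the p85-beta regulatory subunit, was at 6.70 RPKM in the Tet2-/- library and 8.99 RPKM in the WT library, a ratio of 0.745 (0.671 to 0.827). Pik3ap1, for the adaptor BCAP that recruits the kinase to receptors, was at 0.949 RPKM in Tet2-/- cells and 1.45 RPKM in WT cells, a ratio of 0.657 (0.519 to 0.821). Pik3c2a, for a class II lipid kinase, was at 1.64 RPKM in Tet2-/- cells and 1.39 RPKM in WT cells, a ratio of 1.18 (0.990 to 1.41). The regulatory subunit and the adaptor were thus lower in the Tet2-/- library and the catalytic gene was not, and the catalytic class I genes are not among the rows analysed here. Of the 5 kinase subunit and adaptor genes past the filter, Prkag2 was higher and 4 were lower, with a median log2 fold of -0.33. The 13 catalytic kinase genes had a median of 0.069, and 4 were lower. The phosphatases leaned the same way, so this is not particular to the kinases. Of their 12 subunit or regulator genes past the filter 9 were lower, with a median of -0.099. Of their 10 catalytic genes 4 were lower, with a median of 0.13. Of all 2107 rows past the filter 1011 were lower, with a median of 0.0092. The roles were assigned after the values were seen.

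The remaining kinases were led by Nek7, Stk25 and Stk10. Nek7, whose product acts at the mitotic spindle and is a partner of the NLRP3 inflammasome, was at 75.2 RPKM in the Tet2-/- library and 63.5 RPKM in the WT library, a ratio of 1.18 (1.15 to 1.22). Among the kinases and kinase subunits of the 63 symbols it was the most abundant in the Tet2-/- library, whereas in the WT library Prkab1 stood above it. Stk25, for a Ste20-like kinase, was at 58.2 RPKM in Tet2-/- cells and 56.7 RPKM in WT cells, a ratio of 1.03 (0.995 to 1.06). Stk10, for a leukocyte kinase that phosphorylates ezrin-family proteins, was at 31.97 RPKM in Tet2-/- cells and 30.1 RPKM in WT cells, a ratio of 1.06 (1.02 to 1.11). Camk1d, the listed calmodulin-dependent kinase gene, was at 6.90 RPKM in Tet2-/- cells and 5.83 RPKM in WT cells, a ratio of 1.18 (0.975 to 1.43). All 4 stood slightly higher in the Tet2-/- library, and the intervals of Stk25 and Camk1d included 1.

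Of the cyclic nucleotide and lipid-regulated kinases, Prkd3, for protein kinase D3, was at 1.70 RPKM in the Tet2-/- library and 1.14 RPKM in the WT library, a ratio of 1.49 (0.970 to 2.28). Prkg1, for the cyclic GMP-dependent kinase, was at 2.41 RPKM in Tet2-/- cells and 2.58 RPKM in WT cells, a ratio of 0.936 (0.499 to 1.69). Prkcz, for atypical protein kinase C zeta, was at 0.599 RPKM in Tet2-/- cells and 0.912 RPKM in WT cells, a ratio of 0.657 (0.264 to 1.57), and 34.9% of its transcript is shared at 95% identity or more with Prkcz2. The intervals of all 3 included 1. They are wide because the shortest coding transcript, from which fragments were estimated, is short. The longest one would put Prkd3 at 1.24 to 1.79 and Prkcz at 0.487 to 0.896.

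Several kinase genes were barely detected. Stk32c was at 0.221 RPKM in the Tet2-/- library and 0.563 RPKM in the WT library, a ratio of 0.392 (0.182 to 0.784) on about 12 fragments in Tet2-/- cells and 30 in WT cells. Stk36, related to the Fused kinase of flies, was at 0.228 RPKM in Tet2-/- cells and 0.359 RPKM in WT cells, a ratio of 0.637 (0.0923 to 3.05). With fragments from the shortest transcript, Stk32c had an interval clear of 1 and Stk36 did not, while the longest transcript would put Stk36 at 0.412 to 0.989. The 3 listed Cdk symbols, Cdk15, Cdk20 and Cdk5r1, for an activator of Cdk5, were between 0.133 and 0.228 RPKM in Tet2-/- cells and between 0.0594 and 0.265 RPKM in WT cells, with intervals that included 1. Nek10 was at 0.00985 RPKM in Tet2-/- cells and at the substitute value of 0.01 in WT cells, so no direction can be read from it.

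Among phosphatases, Ptprg was by far the most abundant gene and stood higher in the Tet2-/- library. It encodes a receptor-type tyrosine phosphatase with a carbonic anhydrase-like extracellular domain (chromosome 14, 11553532 to 12242041). Its level was 343 RPKM in the Tet2-/- library and 245 RPKM in the WT library, a ratio of 1.40 (1.37 to 1.43). That made it the row of rank 50 in the Tet2-/- library and of rank 62 in the WT library among 8139 rows. It held 24.4% of the summed RPKM of the 63 symbols in Tet2-/- cells and 18.7% in WT cells. Of the summed RPKM of the 5 receptor phosphatase genes it held 99.0% in Tet2-/- cells and 97.8% in WT cells.

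The other receptor phosphatases were weak or not detected. Ptprs, whose product binds heparan and chondroitin sulphate proteoglycans (chromosome 17, 56412426 to 56476483), was at 2.94 RPKM in the Tet2-/- library and 4.76 RPKM in the WT library, a ratio of 0.617 (0.551 to 0.691). It was the member with the lowest ratio past the filter, opposite in direction to Ptprg. Ptpru was at 0.646 RPKM in Tet2-/- cells and 0.727 RPKM in WT cells, a ratio of 0.889 (0.628 to 1.26). Ptprb and Ptprm were at 0.01 in both libraries, where a count of 0 allows up to 0.0138 RPKM for Ptprb and 0.0262 RPKM for Ptprm in Tet2-/- cells and up to 0.0142 and 0.0269 RPKM in WT cells, taking 3 fragments as the limit.

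The non-receptor tyrosine phosphatases included a pair of the PEST family at high level. Ptpn18 was at 79.4 RPKM in the Tet2-/- library and 83.4 RPKM in the WT library, a ratio of 0.952 (0.850 to 1.07). Ptpn12, for PTP-PEST, which acts on adhesion and cytoskeletal proteins, was at 52.8 RPKM in Tet2-/- cells and 59.0 RPKM in WT cells, a ratio of 0.894 (0.861 to 0.928). Both stood slightly lower in the Tet2-/- library. The other pair carries FERM and PDZ domains that place the enzyme at the membrane. Ptpn3 was at 8.83 RPKM in Tet2-/- cells and 8.01 RPKM in WT cells, a ratio of 1.10 (1.03 to 1.18).

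Ptpn13, the largest of these phosphatases (chromosome 5, 103425192 to 103598303), was at 0.343 RPKM in the Tet2-/- library and 1.10 RPKM in the WT library, a ratio of 0.311 (0.242 to 0.400) on about 85 fragments in Tet2-/- cells and 264 in WT cells. It was the only member under the filter whose interval lay wholly beyond 2-fold. With a mean below 1 RPKM it is in none of the counts past the filter, and on the log2(RPKM + 1) scale its difference is -0.65, short of 2-fold. Its exons overlap the gene Gm42620 on the opposite strand.

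The dual-specificity phosphatases were represented by 3 genes besides the one left out by the rule. Dusp7, for an enzyme that dephosphorylates ERK, was at 7.62 RPKM in the Tet2-/- library and 5.91 RPKM in the WT library, a ratio of 1.29 (1.15 to 1.44). Dusp18 was at 5.29 RPKM in Tet2-/- cells and 3.81 RPKM in WT cells, a ratio of 1.39 (1.19 to 1.61). Dusp11, whose product removes phosphates from the ends of RNA rather than from proteins, was at 50.1 RPKM in Tet2-/- cells and 51.3 RPKM in WT cells, a ratio of 0.977 (0.950 to 1.00). The weaker pair stood higher in the Tet2-/- library, and the abundant RNA phosphatase gene was level.

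Among serine and threonine phosphatases the catalytic subunits were abundant and nearly level. Ppp1cb, for a catalytic subunit of protein phosphatase 1, was at 60.9 RPKM in the Tet2-/- library and 55.5 RPKM in the WT library, a ratio of 1.10 with no interval, because its shortest coding transcript is under 400 bases. Ppp4c, for the catalytic subunit of protein phosphatase 4, was at 71.6 RPKM in Tet2-/- cells and 64.4 RPKM in WT cells, a ratio of 1.11 (1.05 to 1.18). Its regulatory partner Ppp4r1 was at 18.6 RPKM in Tet2-/- cells and 20.3 RPKM in WT cells, a ratio of 0.920 (0.867 to 0.977). The differences of both PP4 subunits were under 1.25-fold and opposite in direction. Ppp6r2, a regulatory subunit gene of protein phosphatase 6, was at 6.60 RPKM in Tet2-/- cells and 8.49 RPKM in WT cells, a ratio of 0.777 (0.690 to 0.876).

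Protein phosphatase 2A is a trimer of scaffold, catalytic and regulatory subunits, and 4 of its genes were listed. Ppp2r1a, the scaffold gene, was at 83.6 RPKM in the Tet2-/- library and 82.2 RPKM in the WT library, a ratio of 1.02 (0.981 to 1.06). Among the regulatory subunits that choose the substrate, Ppp2r5d was at 19.2 RPKM in Tet2-/- cells and 21.1 RPKM in WT cells, a ratio of 0.910 (0.851 to 0.973). Ppp2r2a was at 11.2 RPKM in Tet2-/- cells and 11.3 RPKM in WT cells, and Ppp2r5b at 7.73 RPKM in Tet2-/- cells and 8.24 RPKM in WT cells, both with intervals that included 1. The 4 genes summed to 122 RPKM in Tet2-/- cells and 123 RPKM in WT cells, a ratio of 0.991.

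The targeting subunits of protein phosphatase 1 differed more. Ppp1r3g, for a subunit that brings the enzyme to glycogen and promotes glycogen synthesis (chromosome 13, 35958839 to 35970388), was at 13.3 RPKM in the Tet2-/- library and 8.20 RPKM in the WT library, a ratio of 1.62 (1.46 to 1.80) and a log2 fold of 0.63. Of the genes for enzymes and subunits past the filter, it was the one beyond 1.5-fold on the log2(RPKM + 1) scale. Ppp1r3b, for another glycogen-targeting subunit, was at 2.21 RPKM in Tet2-/- cells and 2.63 RPKM in WT cells, a ratio of 0.842 (0.715 to 0.989), opposite in direction. Together the pair summed to 15.5 RPKM in Tet2-/- cells and 10.8 RPKM in WT cells.

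Ppp1r12a, for the subunit that directs the enzyme to myosin, was at 27.5 RPKM in the Tet2-/- library and 30.1 RPKM in the WT library, a ratio of 0.914 (0.867 to 0.963). Its relative Ppp1r12b was at 3.46 RPKM in Tet2-/- cells and 4.52 RPKM in WT cells, a ratio of 0.765 (0.549 to 1.05). Both were lower in the Tet2-/- library, the weaker one within counting error under the shortest transcript. Ppp1r37 was at 21.3 RPKM in Tet2-/- cells and 19.7 RPKM in WT cells, a ratio of 1.08 (1.02 to 1.14). Ppp1r13b, for the p53 cofactor ASPP1, was at 18.1 RPKM in Tet2-/- cells and 18.5 RPKM in WT cells, a ratio of 0.983 (0.928 to 1.04). Ppp1r1a, for an inhibitor of the enzyme, was at 0.0841 RPKM in Tet2-/- cells and 0.0286 RPKM in WT cells, on about 3 fragments in Tet2-/- cells and 1 in WT cells. Ppp1r1b, Ppp1r36 and Ppp3r2, a calcineurin subunit gene, were at 0.01 in both libraries. A count of 0 allows at most 0.290 RPKM in Tet2-/- cells and 0.291 RPKM in WT cells for the one with the shortest transcript, Ppp1r36.

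Sequences before the RefSeq start of 3 genes are shown because these members stood well apart, or apart with a narrow interval, and have a single start in the RefSeq promoter table (GRCm38.p6). Each run is the part of the 250 bases before that start which lies outside the gene's GENCODE exons, on the gene's strand, and capitals mark every CG, the dinucleotide in which mammalian DNA is mainly methylated. A CG reads the same on both strands. The Ppp1r3g run lies inside the span given above for that gene, because GENCODE also annotates a transcript from a more distant start. No entry was found for Cavin3, the current name of Prkcdbp.
Ppp1r3g (chr13:35967656-35967852, plus strand): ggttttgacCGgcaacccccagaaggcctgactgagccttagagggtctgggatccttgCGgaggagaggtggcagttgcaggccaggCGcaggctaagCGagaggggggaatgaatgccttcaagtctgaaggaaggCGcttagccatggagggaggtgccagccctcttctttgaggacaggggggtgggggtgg
Prkab1 (chr5:116024509-116024678, minus strand): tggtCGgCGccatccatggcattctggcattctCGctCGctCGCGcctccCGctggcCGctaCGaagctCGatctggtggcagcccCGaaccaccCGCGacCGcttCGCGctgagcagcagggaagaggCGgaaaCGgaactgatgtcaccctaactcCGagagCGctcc
Ptpn13 (chr5:103424942-103425191, plus strand): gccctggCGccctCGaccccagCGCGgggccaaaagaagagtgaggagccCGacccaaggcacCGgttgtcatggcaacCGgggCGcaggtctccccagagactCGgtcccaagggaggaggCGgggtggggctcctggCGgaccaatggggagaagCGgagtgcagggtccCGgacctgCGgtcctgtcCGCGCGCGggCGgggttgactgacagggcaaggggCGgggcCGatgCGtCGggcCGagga
The Ppp1r3g run holds 5 CG in 197 bases, and 46.8% of all 32851 windows of the same length and place hold at least as many. The Prkab1 run holds 20 in 170 bases, which 5.73% of windows reach, and the Ptpn13 run holds 24 in 250 bases, which 12.0% reach. The 62 windows of the 48 symbols with an entry have a median of 17.5 CG in 250 bases, against 6 for all windows. At least 1 CG is found in 88.8%, 86.3% and 92.1% of windows of these lengths. Methylation was not measured in these data.

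The symbol that passed 2-fold is not a kinase. Prkcdbp, now called Cavin3, encodes a caveola coat protein named for its binding to protein kinase C delta (chromosome 7, 105480083 to 105482300). It was at 3.22 RPKM in the Tet2-/- library and 0.520 RPKM in the WT library, a ratio of 6.19 (4.00 to 9.94) and a log2 fold of 1.47, on about 152 fragments in Tet2-/- cells and 24 in WT cells. Its exons overlap the gene Gm45667 on the opposite strand. Without the 5 symbols that are neither enzyme nor subunit, a restriction chosen after seeing the data, 0 of the 40 remaining members past the filter were higher or lower by 2-fold. Of all 2107 rows past the filter 2.9% were higher and 1.61% lower, so 0 of 40 is close to the background.

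Most listed markers of other blood cells also stood higher in the Tet2-/- library. All 6 listed of 14 macrophage and monocyte markers were higher in the Tet2-/- library with intervals above 1, and they summed to 23.8 RPKM in Tet2-/- cells and 1.06 RPKM in WT cells, most of it Ly6c2. The defining marker Csf1r was at 1.32 RPKM in Tet2-/- cells and 0.122 RPKM in WT cells. The 3 listed of 12 neutrophil markers summed to 10.1 RPKM in Tet2-/- cells and 1.12 RPKM in WT cells, most of it Ly6g, which has no interval. Mpo was at 0.458 RPKM in Tet2-/- cells and at 0.01 in WT cells, and Csf3r was at 0.01 in both. The 2 of 9 eosinophil markers summed to 2.27 RPKM in Tet2-/- cells and 0.829 RPKM in WT cells. Of these, Ear2 was at 1.45 RPKM in Tet2-/- cells and 0.117 RPKM in WT cells. Il5ra was at 0.820 RPKM in Tet2-/- cells and 0.712 RPKM in WT cells, with an interval that included 1. The basophil marker Mcpt8, 1 of 5 on its list, was at 163 RPKM in Tet2-/- cells and 56.1 RPKM in WT cells. The 2 of 10 lymphocyte markers summed to 1.38 RPKM in Tet2-/- cells and 0.836 RPKM in WT cells, Ppbp, 1 of 11 erythroid and megakaryocyte markers, was at 0.01 in both, and 0 of 10 dendritic cell markers were listed. Their part in the value of Prkcdbp, or of the other members, was not tested, and in a bulk library more cells of a type and more RNA per cell cannot be told apart.

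The other symbols that are neither enzyme nor subunit differed less. Prkrir, now Thap12, the gene of a zinc finger protein, was at 22.3 RPKM in the Tet2-/- library and 21.4 RPKM in the WT library, a ratio of 1.04 (0.985 to 1.10). Ppp1r3fos, a long non-coding RNA now called Flicr, was at 1.24 RPKM in Tet2-/- cells and 0.821 RPKM in WT cells, a ratio of 1.51 (1.13 to 2.00). Its exons overlap Ppp1r3f on the opposite strand, and 13.8% of its transcript matches Foxp3. The pseudogene Ppp1r2-ps6 was at 0.01 in Tet2-/- cells and 0.0712 RPKM in WT cells, on about 0 fragments in Tet2-/- cells and 1 in WT cells, and Ppp1r2-ps2 was at 0.01 in both. Both pseudogenes match other copies of Ppp1r2 over 100% of their length, so their values are uncertain. Among the 63 transcripts searched, only these pseudogenes matched other genes over 50% or more of their length, at 95% identity or more.

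**Figure D3:**
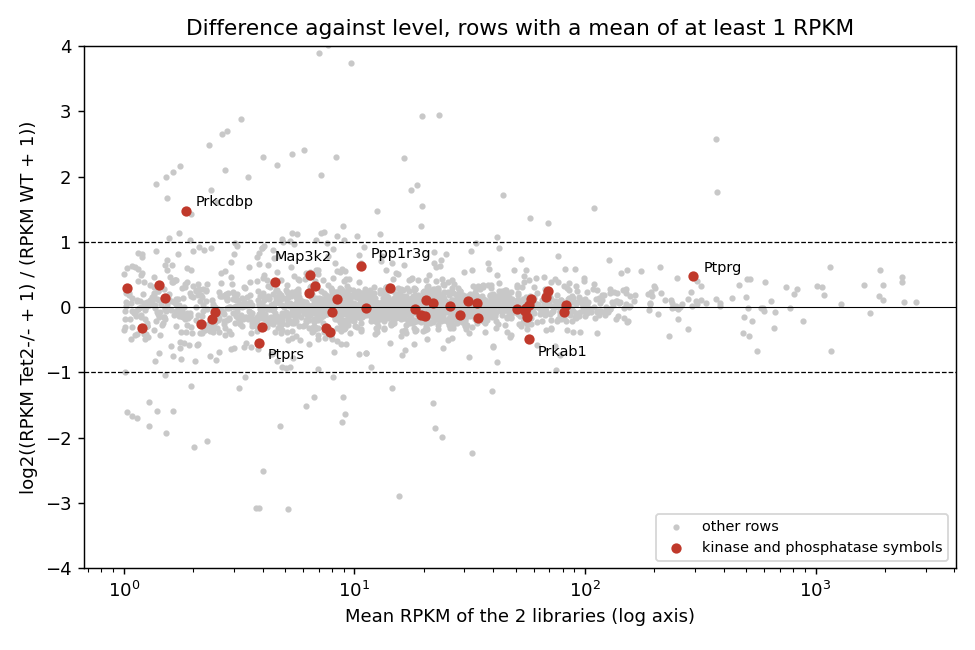
Each point is a row averaging at least 1 RPKM, placed by that mean on a log axis and by log2 of Tet2-/- over WT after adding 1 RPKM, with the 43 kinase and phosphatase symbols in red and all other rows in grey; dashed lines mark 2-fold, and 10 rows lie beyond the vertical axis of 4. All red points but Prkcdbp lie inside the dashed lines, and Ptprg, the most abundant of them, lies at 0.48.

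Genes that work with these enzymes were described from lists of known partners, of which few genes were listed. The Ras and MAP kinase list had 1 of 51, Rps6ka4, for a kinase downstream of ERK and p38, at 19.0 RPKM in the Tet2-/- library and 18.3 RPKM in the WT library. The list for phosphoinositide 3-kinase, AKT and mTOR had 9 of 48, and of the 8 past the filter 0 were higher and 1 was lower by 1.5-fold or more, with a median log2 fold of 0.049. That gene was Sgk1, for a kinase activated through this pathway, at 1.03 RPKM in Tet2-/- cells and 2.52 RPKM in WT cells, a ratio of 0.408 (0.309 to 0.540). The most abundant of the list was Gsk3b, for a kinase that AKT inhibits, at 25.1 RPKM in Tet2-/- cells and 20.7 RPKM in WT cells. On the log2(RPKM + 1) scale none of the 9 passed 2-fold. Of all rows past the filter, 5.84% were higher and 3.61% lower by 1.5-fold or more.

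The calcium list had 3 of 29, led by Plcb2, for a phospholipase C, at 67.8 RPKM in the Tet2-/- library and 73.4 RPKM in the WT library. The list of tyrosine kinases and adaptors had 6 of 34, led by Fes at 92.8 RPKM in Tet2-/- cells and 97.9 RPKM in WT cells, and the list of cell cycle kinases, cyclins and inhibitors had 8 of 49, led by Cks2, for a partner of cyclin-dependent kinases, at 148 RPKM in Tet2-/- cells and 127 RPKM in WT cells. Of the 14 genes of these lists past the filter, 0 were 1.5-fold apart. With 5.84% of all rows higher and 3.61% lower at that threshold, 0 of 14 is close to the background. The median log2 folds were -0.11 over 3 genes, 0.022 over 4 and 0.060 over 7.

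The cyclic AMP, protein kinase A and protein kinase C list had 7 of 30, led by Gnas, for a stimulatory G protein subunit, at 313 RPKM in the Tet2-/- library and 266 RPKM in the WT library. Of its 5 genes past the filter, 1 was lower by 2-fold or more, Dgki, for a diacylglycerol kinase, at 9.13 RPKM in Tet2-/- cells and 35.5 RPKM in WT cells, and the median log2 fold was -0.062. The Hippo, AMPK and LKB1 list had 4 of 29, led by Mob1a at 104 RPKM in Tet2-/- cells and 99.99 RPKM in WT cells, with a median of 0.059 over 3 genes. Among the genes of the 7 lists past the filter, Dgki was thus the one beyond 2-fold on that scale. Of all rows past the filter, 2.9% were higher and 1.61% lower by 2-fold or more. Csf1r, on the tyrosine kinase list and given above among the macrophage markers, had a log2 fold of 1.05 but averaged under 1 RPKM.

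**Figure D4:**
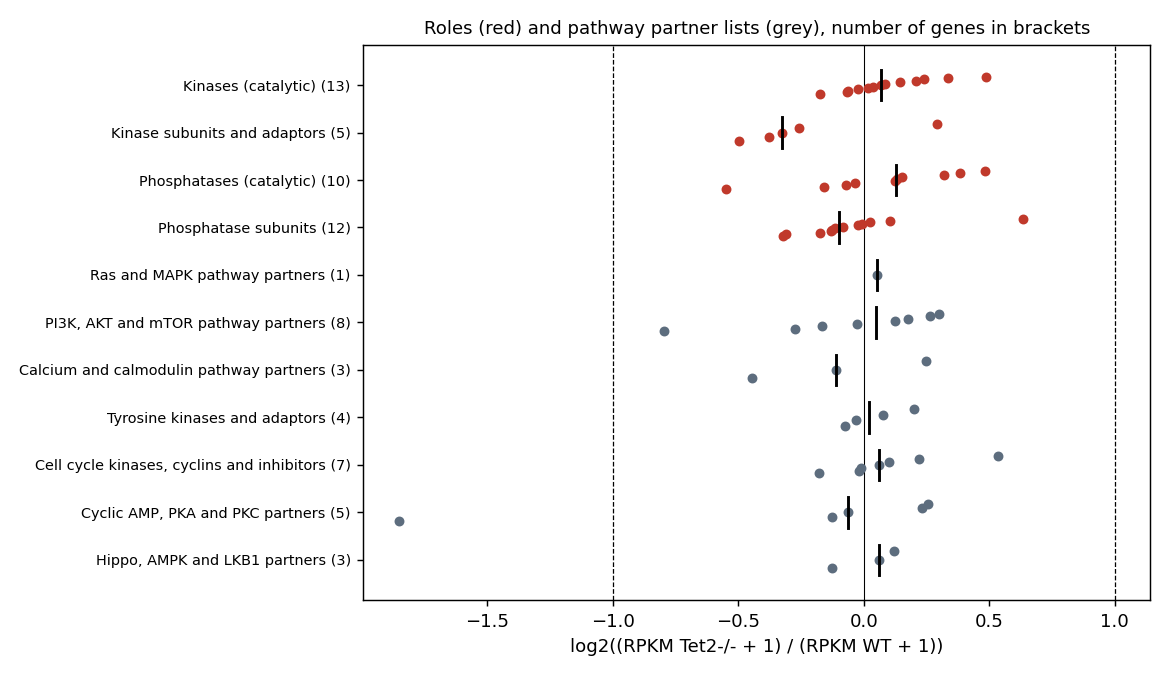
Each point is a gene with a mean of at least 1 RPKM, placed by log2 of Tet2-/- over WT after adding 1 RPKM, in red for the 4 roles of kinases and phosphatases and in grey for the 7 partner lists, with the number of genes in brackets, the median as a black bar and dashed lines at 2-fold. Medians of the roles run from -0.33 for kinase subunits and adaptors to 0.13 for catalytic phosphatases, and Dgki is the one gene outside the dashed lines.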

How the data were processed

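RNA-seq of 1 Tet2-/- and 1 WT bone marrow derived mast cell library was used. The authors deposited RPKM values per gene symbol, reads scaled to gene length and mapped reads, per the file headers. Per the submitters' processing notes, reads were placed on mm10. What aligned and counted them, and whether libraries were stranded, is not given in the sources used here. Each RPKM depends on the gene model, and very abundant transcripts lower the values of others. The value 0.01 stood in 57.4% of Tet2-/- rows and 58.1% of WT rows and was read as a substitute for no reads.

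Differences were computed as log2 of the RPKM ratio after adding a pseudocount of 1, which understates the change of low genes, for rows with a mean of at least 1 RPKM. With 1 library per genotype there was no test, and 2-fold was a fixed rule of size. Depth was inferred from low values of genes with 1 transcript in GENCODE mouse release 21. At 31900000 fragments in Tet2-/- and 30900000 in WT, and with 180 and 170 bases taken off the transcript length, 95.9% of 439 and 96.6% of 411 values lay within 0.1 of a whole fragment. The depths were chosen to make that share highest. Each ratio has an exact Clopper-Pearson 95% interval from the fragments of its shortest basic coding transcript of at least 400 bases, covering counting error only.

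Of the 63 symbols, 60 matched GENCODE directly and 3 through an older symbol in RefSeq. The members and lists were chosen with earlier results of these data known, and the roles were assigned after the values were seen. Named were the 3 most abundant members of each symbol family, members at least 1.5-fold apart, weaker members whose interval lay wholly beyond 2-fold, and all at 10 RPKM or more. In the partner lists, genes at least 1.5-fold apart and the most abundant were named. Other members were named after their values were seen, to account for all. Other pseudocounts, filters, fold thresholds, scaling and transcript lengths were tried. The calculation was also run on data simulated from the WT levels at the inferred depths. Changes were planted only in better expressed genes, so that run does not bear on weak genes or on the spread between cultures. Tables were handled in pandas 2.3.3 and numpy 2.4.6 under Python 3.11.15, intervals came from scipy 1.17.1, figures from matplotlib 3.10.9, and near-identical transcripts were searched with BLAST.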

Additional observations from a re-analysis of the deposited data

How the results depend on the processing

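The count of 1 member higher in Tet2-/- was 0 under a pseudocount of 5, 0 under a minimum mean of 5 RPKM, 0 at 4-fold, 2 at 1.5-fold, and 0 with kinases, phosphatases and their subunits only, a restriction chosen after seeing the data. It was 1 with a pseudocount of 0.1, with no filter and under median-ratio scaling, and the count of 0 lower stayed at 0 under all of these. The first 3 lose Prkcdbp by construction, since it is weakly expressed and its ratio is reduced by the pseudocount. The median log2 fold of the members lay between -0.015 and 0.020 under the alternatives, below 0 only with enzymes and subunits alone. Of 85 alternative medians of symbol families and partner lists, 6 changed sign: the receptor phosphatases at 0.089 under a pseudocount of 5 and 0.48 under a minimum mean of 5 RPKM, and, with no filter, the Prk symbols at -0.0056, the Stk symbols at -0.053, the cyclic AMP list at 0.0092 and the Hippo list at -0.0015. Among 41 named genes, 0 of 123 alternative values changed direction, which a pseudocount cannot do and the scaling, a shift of 0.010 in log2, could hardly do. In size, 4 of the 123 moved. Under a pseudocount of 0.1 Prkcdbp was at 2.42, Ptpn13 at -1.44 and Stk32c at -1.05, and under a pseudocount of 5 Prkcdbp was at 0.57. Ptpn13 and Stk32c thus passed 2-fold lower under a pseudocount of 0.1, but average under 1 RPKM and are left out of that count by the filter. Fragment numbers from the longest coding transcript gave 17 intervals above 1 and 14 below, against 14 and 12, among members past the filter, and changed the side of 5 of them, Camk1d, Pik3c2a, Prkd3, Ppp1r12b and Ptpn18, and of 2 below it, Prkcz and Stk36. No paired analysis was possible because there is 1 library of each genotype, and for the same reason leaving a library out was not possible. Depth limits the weak genes: members under 0.1 RPKM are known only to within a wide interval.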
